A study of Mus musculus with 12 samples.

Results

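The antioxidant enzymes described here were set by symbol as 10 mouse genes, Sod1, Sod2, Cat, Gpx1, Gpx3, Gpx4, Prdx1, Prdx3, Prdx5 and Txn2, and each was read from the probe sets that the platform annotation gives to that symbol alone. Of the 10 genes, 8 had such a probe set, with 19 probe sets between them, out of 18193 genes on the array. All 5 probe sets of Prdx1 also name Gm21399, so no value is given for Prdx1, and Prdx5 was not analysed here because the probe annotation used does not list it. Expression was measured with Affymetrix mouse arrays, each hybridised with total RNA from 1 tissue sample, in 12 arrays that form 4 groups of 3. The groups were liver from C57BL/6 control mice, liver from C57BL/6 PGC1beta mutant mice, quadriceps muscle from C57BL/6 control mice and quadriceps muscle from C57BL/6 PGC1beta mutant mice. The series title calls the mutation hypomorphic, which means that the function of the gene is reduced and not abolished. The labels give no age or sex and do not say whether a liver and a muscle came from the same animal. They number the samples of a group without stating that each is a separate animal, so a p-value here weighs a difference against the variation among these samples, part of which may be technical.

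The members act on reactive oxygen and its products, several of them one after another. Superoxide dismutases (Sod1 in the cytosol, Sod2 in the mitochondrial matrix) turn superoxide into hydrogen peroxide. Hydrogen peroxide is then removed by catalase (Cat) in peroxisomes and by glutathione peroxidases (Gpx1 in cytosol and mitochondria, Gpx3 as a secreted protein). Peroxiredoxins also remove it, and of these Prdx3 is mitochondrial and is recycled by mitochondrial thioredoxin, Txn2. Gpx4, another glutathione peroxidase, acts on lipid peroxides in membranes. PGC1beta, encoded by Ppargc1b, is a transcriptional coactivator of mitochondrial and metabolic genes, and the coactivator family to which it belongs is known to take part in the expression of several of these enzymes. The comparison of mutant with control tissue asks whether their mRNA levels differ when PGC1beta is altered.

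The arrays correlated within liver at r between 0.943 and 0.960 and within muscle at r between 0.961 and 0.971 over all probe sets, and none were identical. Hepatocyte markers (7 measured) summed to between 71573 and 80669 intensity units in liver and between 238 and 672 in muscle, and the 8 skeletal muscle markers summed to between 91.3 and 137 in liver and between 72412 and 76221 in muscle, so the tissue labels match their markers. The log2 ratio of 3' to 5' probe signal, a measure of RNA integrity averaged over Actb, Gapdh and Pcx, was 0.50 to 0.97 in the liver controls. In the liver mutants it was 1.90 on array 1, 0.90 on array 2 and 1.87 on array 3. In muscle it was 0.40 to 0.52 in controls and 0.33 to 0.56 in mutants. The probe set of Ppargc1b did not pass the test in either tissue, with a log2 difference, mutant minus control, of -0.28 in liver (SE 0.32, limma adjusted p = 0.691) and 0.056 in muscle (SE 0.17, limma adjusted p = 0.998). The labels do not say which stretch of the gene is altered, so this probe set gives no check of the genotype.

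In mutant liver 1 of the 8 measured antioxidant genes rose and none fell. The gene that rose was Gpx4, which encodes the glutathione peroxidase that reduces lipid peroxides within membranes. Across all genes 3.35% passed the same limma test in liver, 2.33% as higher and 1.03% as lower, and 19.6% had an unadjusted p under 0.05. Of the members 2 of 8 had an unadjusted p under 0.05. The median log2 difference of the 8 members was 0.070, beside 0.010 for all 13326 genes tested.

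Gpx4 was read from probe set 1456193_x_at, which had the higher mean log2 intensity over all 12 arrays. The mutant livers compared below entered that mean, so the choice was not independent of them. Mean log2 values were 10.74 and 11.70 in control and mutant liver, and 10.43 and 10.45 in control and mutant muscle. For the other probe set, 1451695_a_at, they were 11.43, 11.93, 9.90 and 9.82 in the same order. On the control arrays alone that other probe set had the higher mean. In liver 1456193_x_at was the dimmer of the Gpx4 probe sets, with means of 1727 in controls and 3359 in mutants, beside 2746 and 3880 for the other. Its quantile-normalised intensity was 1495, 2252 and 1436 in the control livers and 4229, 2868 and 2981 in the mutant livers. Every mutant liver lay above every control liver, as for 13% of all genes, and mutant array 1 was the highest. The log2 difference was 0.96 (SE 0.19, n = 3 and 3, limma adjusted p = 0.0306), or 1.95-fold on the log2(intensity + 16) scale. The other Gpx4 probe set, 1451695_a_at, read 2520, 3096 and 2623 in control livers and 4185, 3742 and 3712 in mutant livers, again with no overlap. Its log2 difference was smaller, 0.50 (SE 0.12), and did not pass when every probe set was tested on its own (limma adjusted p = 0.0556, where 2.2% of probe sets passed).

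Mutant livers 1 and 3 had the highest 3' to 5' ratios of the liver arrays. Mutant livers 3 and 2, with ratios of 1.87 and 0.90, read nearly the same on both Gpx4 probe sets. Mutant liver 1, with the highest ratio, read highest. In control livers 3, 1 and 2, with ratios of 0.50, 0.74 and 0.97, probe set 1456193_x_at rose in that order, at 1436, 1495 and 2252. Control liver 2 was also the highest control on 1451695_a_at, at 3096. Mutant liver 2, whose ratio lay within the range of the controls, read 2868 against at most 2252 in the controls. With that array as the only mutant liver the log2 difference was 0.76 (SE 0.26, limma adjusted p = 0.466), where the spread comes from the 3 controls alone and the lone mutant is assumed to vary as they do, and with the ratio as a covariate in the model it was 0.57 (SE 0.26, limma adjusted p = 0.661). With limma under those settings, 0 genes of the whole array (1091 at an unadjusted p under 0.05) and 2 genes passed. Leaving out 1 array at a time, the log2 difference stayed between 0.78 and 1.17, and the call was lost without control 1 (limma adjusted p = 0.106), control 2 (0.0502), control 3 (0.0875), mutant 1 (0.146) or mutant 3 (0.0651), and kept without mutant 2 (0.0274). Markers of Kupffer cells and macrophages, the resident and recruited phagocytes of liver, also differed between the liver groups. Of 10 such markers 3 rose, beside 2.33% of all genes. They were Lyz2 by 1.28, Tyrobp by 1.34 and Vsig4 by 0.80 on the log2 scale (limma adjusted p = 0.0181, 0.0168 and 0.0453). None of these calls held without control liver 2 or without mutant liver 1, where 0 genes of the whole array passed. The median of the 10 was 0.47, and no marker was at 0. Only Csf1r, the brightest of them in liver, was lower in mean (-0.066, limma adjusted p = 0.882). The summed intensity of the 10 markers was 2307 to 3205 in controls and 3646 to 4736 in mutants. The part of these cells in the Gpx4 result was not tested, and more such cells and more RNA per cell cannot be told apart in whole tissue.

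**Figure D1:**
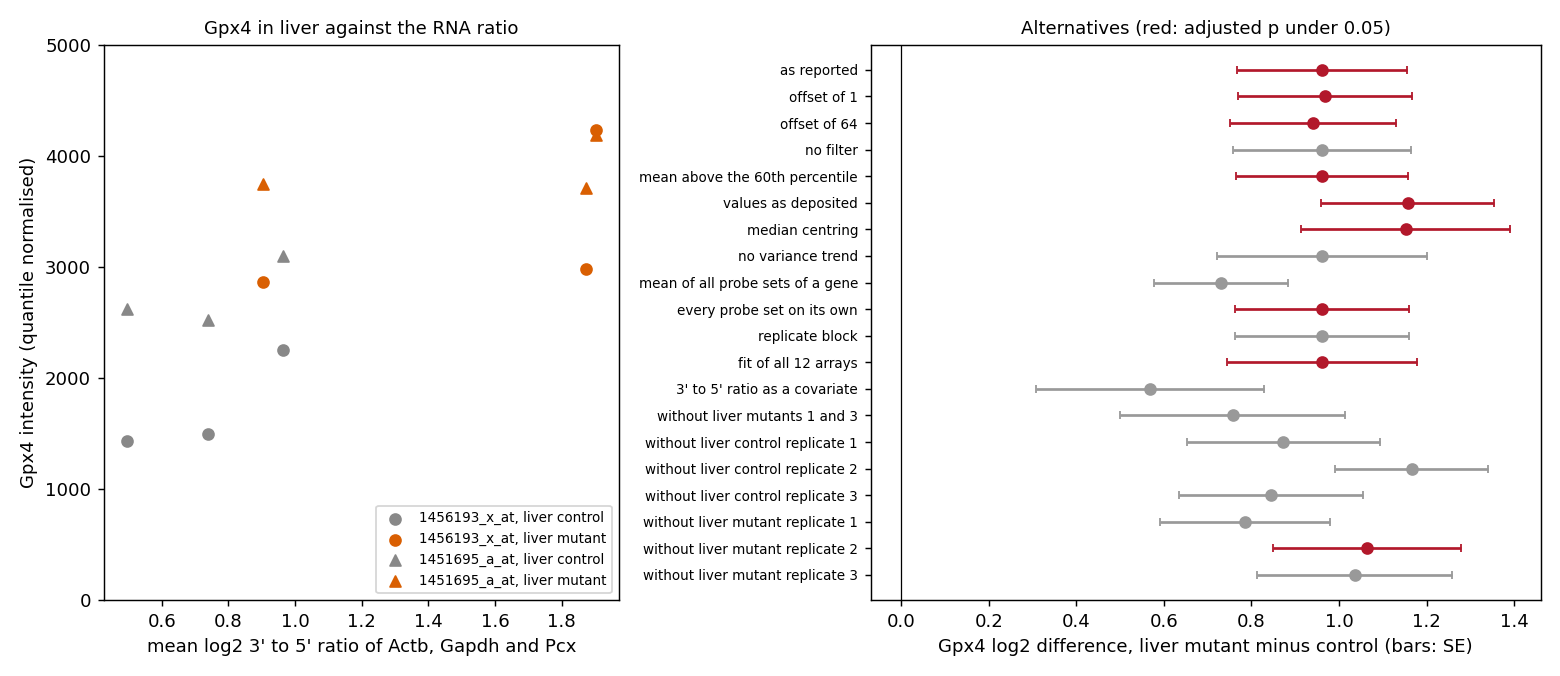
Left, the intensity of the 2 Gpx4 probe sets on each of the 6 liver arrays (linear axis) against the mean log2 ratio of 3' to 5' signal; right, the Gpx4 log2 difference in liver, mutant minus control, with its SE under each setting, red where the limma adjusted p was under 0.05. Mutant livers 1 and 3 sit at ratios near 1.90 and 1.87, mutant liver 2 at 0.90, and the difference is above 0 in every setting but red in only some.

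The RefSeq promoter table (GRCm38.p6) held all 10 members with 13 start sites, and the 250 bases before each start were searched on both strands for 3 motifs. The binding core of NRF1, a nuclear factor for mitochondrial and housekeeping genes, spelled GCGC, any 2 bases and GCGC again, was found in 4.98% of 32851 promoter windows and, among the members, only before Gpx4. It lay 59 bases before one Gpx4 start and 153 before a neighbouring start, which is the same site seen from both. The stretch is shown because Gpx4 was the member that rose. It is the 150 bases at chr10:80053415-80053564 on the + strand, immediately before that first start, with the match in capitals. The letters are a description and say nothing of whether a factor bound there.

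Gpx4 promoter: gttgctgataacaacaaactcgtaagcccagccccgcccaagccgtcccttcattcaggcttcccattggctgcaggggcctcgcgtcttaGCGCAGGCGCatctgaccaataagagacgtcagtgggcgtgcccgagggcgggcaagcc

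The superoxide dismutases gave no call in liver. Sod2, read from probe set 1417193_at, was 2330, 2589 and 2589 in control livers and 1579, 1866 and 2309 in mutant livers. The groups did not overlap, which held for 11% of all genes in that direction, and the log2 difference of -0.40 (SE 0.14) did not pass the test (limma adjusted p = 0.16). On the scale of the deposited values the groups overlapped, and of the 4 Sod2 probe sets 3 had a lower mean and 1 a higher one, from -0.40 to 0.059. Sod1 was 6517, 7097 and 6354 in control livers and 7162, 6703 and 7946 in mutant livers, with overlap. Its log2 difference was 0.13 (95% interval -0.081 to 0.33, limma adjusted p = 0.514).

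On their chosen probe sets catalase and Gpx1 had near-zero differences in liver, and Gpx3 had a wide interval. Catalase was 7079, 6100 and 7401 in controls and 6703, 6981 and 6803 in mutants, so the mutant values fell inside the control range. Its log2 difference was -0.0019 (95% interval -0.21 to 0.20, limma adjusted p = 0.995). The other catalase probe set, 1416430_at, gave -0.28 (SE 0.12, 95% interval -0.54 to -0.023), with a limma unadjusted p of 0.0358 and adjusted p of 0.224. Gpx1 was 11297, 11467 and 10293 in controls and 11014, 11184 and 11153 in mutants. Its log2 difference of 0.014 had a 95% interval of -0.15 to 0.18 (limma adjusted p = 0.948). Gpx3 was dim in liver, with 58.8, 47.7 and 9.74 in controls and 34.7, 30.1 and 54.6 in mutants, and its interval was correspondingly wide, -0.73 to 1.01 around 0.14.

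The mitochondrial pair of peroxiredoxin and thioredoxin also stayed short of the test in liver. Prdx3 was 1089, 1602 and 1311 in controls and 1677, 1272 and 1641 in mutants. The log2 difference was 0.20 (95% interval -0.17 to 0.57, limma adjusted p = 0.563). Txn2 was 738, 1007 and 978 in controls and 767, 664 and 971 in mutants, and the values of both genes overlapped between the groups. All 3 Txn2 probe sets had a lower mean in the mutants, with log2 differences from -0.44 to -0.18, and none passed.

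**Figure D2:**
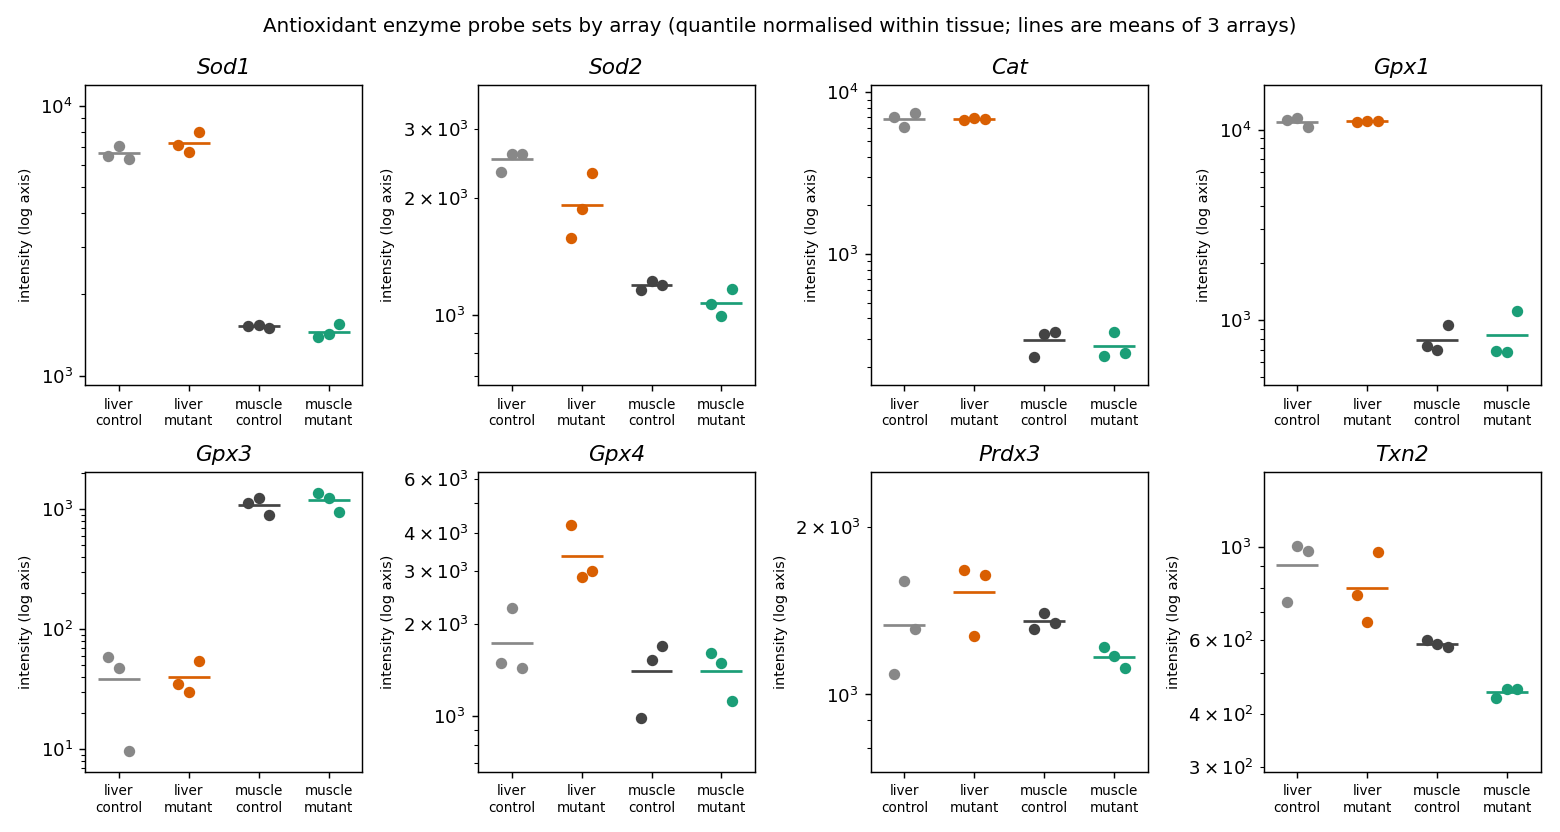
Quantile-normalised intensity (log axis) of the 8 measured genes on each of the 12 arrays, 1 panel per gene, with points for arrays and lines for the mean of 3 arrays. Liver and muscle were normalised separately here, so heights compare within a tissue; Gpx4 in mutant liver (2868 to 4229) lies above control liver (1436 to 2252), and Txn2 in mutant muscle (438 to 460) below control muscle (577 to 600).

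In quadriceps muscle none of the 8 genes passed the test with limma, and 0.0152% of all 13131 genes did. Of the members 2 of 8 had an unadjusted p under 0.05, and 4.26% of all genes did. The median log2 difference of the members was -0.094, beside -0.00021 for all genes. By gene, 5 of the 8 had a lower mean and 3 a higher mean in the mutants. By probe set, 14 of the 18 tested had a lower mean and 4 a higher mean, beside 49.9% of all probe sets tested with a lower mean. Probe sets of the same gene are repeated readings of it, and Sod2 with 4 and Txn2 with 3 were lower on all of theirs.

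Those 2 members were Txn2 and Prdx3, the mitochondrial thioredoxin and the peroxiredoxin that it recycles. Txn2 was 600, 587 and 577 in control muscles and 438, 459 and 460 in mutant muscles. The groups did not overlap, as for 5.22% of all genes in that direction, and the arrays of each group lay close together. The log2 difference was -0.37 (SE 0.097, unadjusted p = 0.00347), with a limma adjusted p of 0.994. The other Txn2 probe sets gave -0.30 and -0.43, the latter also without overlap. Over the other settings tried the Txn2 difference lay between -0.38 and -0.32, and its adjusted p was never under 0.707.

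Prdx3 was 1313, 1402 and 1344 in control muscles and 1219, 1175 and 1115 in mutant muscles, also without overlap. Its log2 difference was -0.21 (SE 0.085, unadjusted p = 0.0341, limma adjusted p = 0.994). Adipocyte markers (6 measured) summed to between 4462 and 9146 in control muscles and between 9289 and 10956 in mutant muscles. None of the 6 passed the test and none was at 0. Most of the sum was Car3, with means of 4522 in control and 7196 in mutant muscle. Car3 was also bright in control liver, at 12596, so the sum is not a measure of fat alone. Adipoq had means of 326 and 435 in control and mutant muscle, and only Lep was lower in mean (-0.32). Their part in the muscle values was not tested.

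On their chosen probe sets the remaining members overlapped between control and mutant muscle. Sod2 had a log2 difference of -0.15 (95% interval -0.35 to 0.058), Cat one of -0.12 (-0.50 to 0.26) and Sod1 one of -0.069 (-0.25 to 0.12). Probe sets not chosen for the gene did not all overlap, as Sod2 1454976_at was lower without overlap (-0.28, limma adjusted p = 0.996) and Sod1 1459976_s_at higher without overlap (0.17, limma adjusted p = 0.996). The glutathione peroxidases were centred near 0, with Gpx1 at 0.047 (-0.38 to 0.47), Gpx3 at 0.12 (-0.23 to 0.46) and Gpx4 at 0.024 (-0.41 to 0.46). Gpx4 was 981, 1525 and 1694 in control muscles and 1602, 1486 and 1121 in mutant muscles, so that the lowest and the highest value were both in controls.

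**Figure D3:**
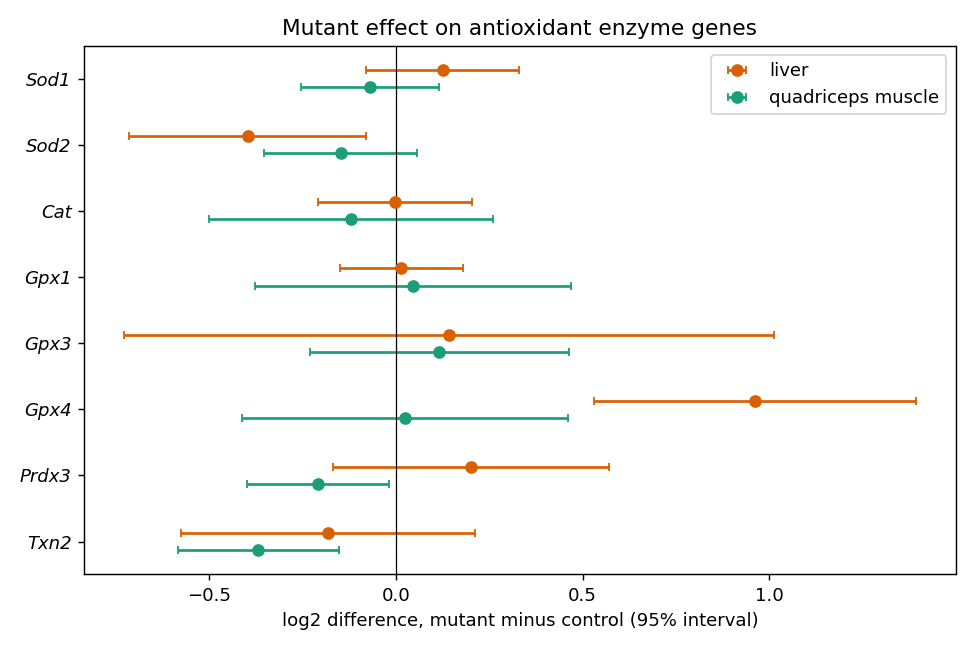
Log2 difference, mutant minus control, of the 8 measured genes in liver and in quadriceps muscle; points are estimates from 3 against 3 arrays and bars are 95% intervals. Gpx4 in liver is at 0.96 and in muscle at 0.024, and the muscle values of Txn2 (-0.37) and Prdx3 (-0.21) lie below 0.

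The mutant effect was compared between the tissues by an interaction term, and none of the 8 members passed that test with limma, where 1.42% of 11841 genes passed. Of the members 1 of 8 had an unadjusted p under 0.05, beside 15.5% of all genes. That member was Gpx4, whose effect in liver less its effect in muscle was 0.94 on the log2 scale (95% interval 0.28 to 1.60, unadjusted p = 0.00846, limma adjusted p = 0.151). Over the other settings tried it lay between 0.58 and 1.17 with adjusted p between 0.0824 and 0.740. A difference between the tissues in the Gpx4 response was therefore not established by this test, although Gpx4 passed in liver alone. Prdx3, higher in mean in mutant liver and lower in mean in mutant muscle, had an interaction of 0.41 (95% interval -0.0033 to 0.82, limma adjusted p = 0.324).

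On their chosen probe sets most members differed between control liver and control muscle. With all 12 arrays normalised together, 3 genes were higher in liver and 3 lower, where 54.7% of 14673 genes passed, 26.3% as higher and 28.4% as lower. Gpx4, counted among the lower genes at -0.56, was called higher on its other probe set (0.65, limma adjusted p = 0.0054, every probe set tested on its own). The values of 6 of the 8 did not overlap between the tissues, as for 61.4% of all genes. Catalase, the peroxisomal enzyme, was 5173, 4454 and 5399 in control livers and 290, 405 and 423 in control muscles. The groups were far apart, with a log2 difference, liver minus muscle, of 3.71 (SE 0.15, limma adjusted p = 2.2e-09). Gpx1 was 9012, 9231 and 7653 in control livers and 968, 925 and 1271 in control muscles. It differed by 3.02 (SE 0.13, limma adjusted p = 5.23e-09).

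Gpx3, the secreted glutathione peroxidase, had the opposite tissue pattern. It was 47.1, 38.0 and 7.77 in control livers and 1534, 1714 and 1211 in control muscles. Muscle was higher on every array, with a log2 difference, liver minus muscle, of -5.10 (SE 0.31, limma adjusted p = 8.38e-08). The size depends on the added offset because the liver values are dim, and it was -5.87 with an offset of 1. Sod1 was 4762, 5188 and 4631 in control livers and 2090, 2114 and 2063 in control muscles. Its log2 difference was 1.21 (SE 0.091, limma adjusted p = 5.52e-07). Tested one by one, where 51.8% of all probe sets passed, 3 of its 4 tested probe sets were called higher in liver while 1435304_at, dim at 24.9 to 80.5 units, was called lower (-0.97).

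Sod1 was also the only measured member whose promoter window held the antioxidant response element core, TGACNNNGC, the site of NRF2 and its partners. The match, found in 10.2% of windows, lay 56 bases before the start on the other strand. It is shown because the NRF2 genes are counted beside the members. The stretch is the 150 bases at chr16:90220612-90220761 on the + strand, with the match in capitals. The estrogen-related receptor element TNAAGGTCA, the site of nuclear receptors that PGC1beta binds, was in 1.14% of windows and in no member window.

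Sod1 promoter: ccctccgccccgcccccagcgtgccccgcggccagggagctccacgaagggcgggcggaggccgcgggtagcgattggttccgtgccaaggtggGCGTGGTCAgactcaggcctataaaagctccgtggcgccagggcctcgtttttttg

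The other 4 members sat closer together in the tissues. The order of Gpx4, Sod2 and Txn2 depended on the probe set or the scaling, whereas Prdx3, which has 1 probe set, was lower in liver in all 17 other settings tried and passed in 15 of them. Prdx3 was lower in liver at 830, 1195 and 990 against 1798, 1924 and 1843 in muscle, a log2 difference of -0.89 (SE 0.13, limma adjusted p = 0.00016). Gpx4 was 1120, 1644 and 1077 in control livers and 1324, 2092 and 2330 in control muscles, which overlap, and the log2 difference of -0.56 passed narrowly (SE 0.21, limma adjusted p = 0.0451). Its other probe set, 1451695_a_at, was called in the other direction, 0.65 (SE 0.16, limma adjusted p = 0.0054), with 1839, 2246 and 1912 in liver and 1148, 1650 and 1070 in muscle. No order of the tissues can therefore be given for Gpx4. Sod2 (0.15) and Txn2 (-0.16) did not pass, and their probe sets ranged from -0.88 to 0.65 and from -0.58 to 0.14.

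With the deposited scaling or normalisation within each tissue, the median of all genes moved to 0.49 in favour of liver, and 74.6% and 74.3% of calls were higher in liver, beside 48.1% with all arrays normalised together. Relative to that median on the deposited scale, Cat was at 3.88, Gpx1 at 3.25, Gpx3 at -4.97 and Sod1 at 1.52. These 4 kept their sign and their call in all 17 other settings tried. Prdx3 was at -0.59 relative to the median there but at -0.0996 without it (limma adjusted p = 0.635), while Gpx4 turned to 0.25 and Txn2 to 0.57 before the median was taken off. Sod2 was 0.98 on the deposited scale and was then called higher in liver (limma adjusted p = 5.13e-05).

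**Figure D4:**
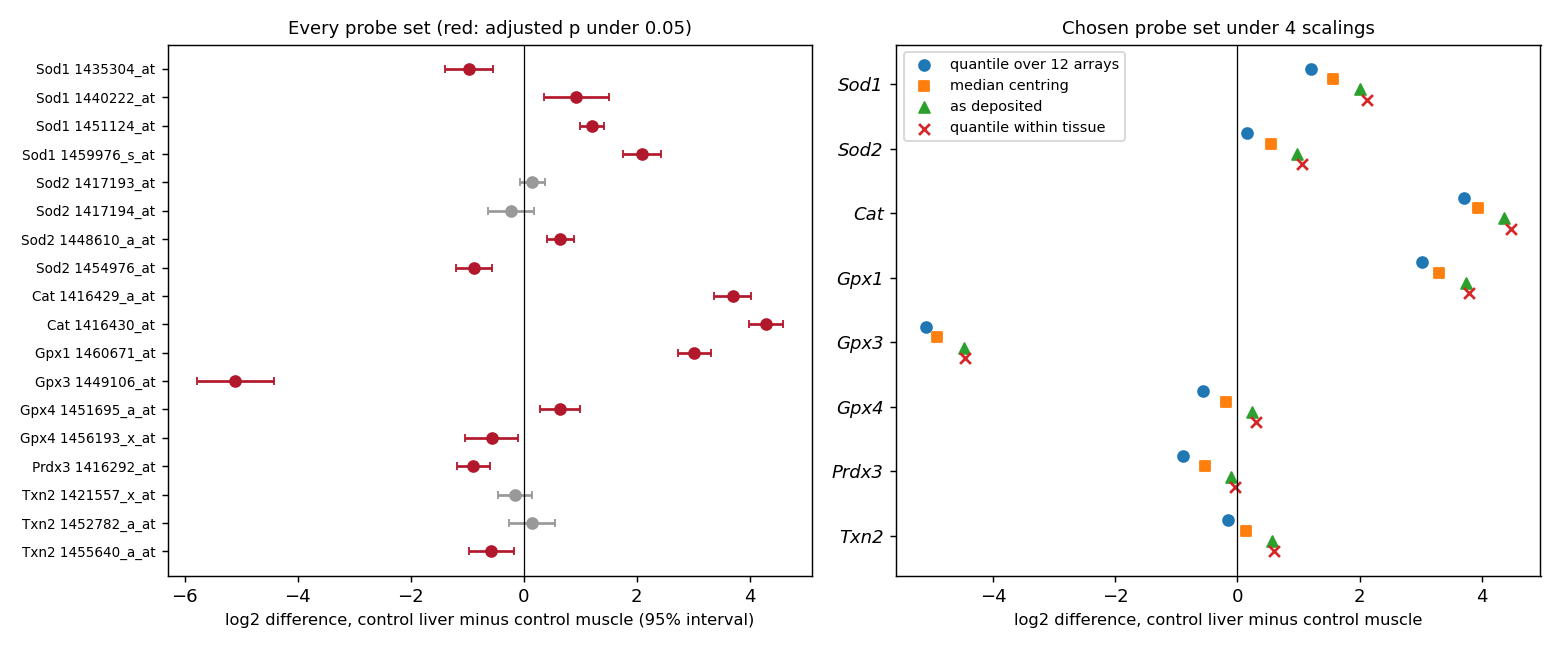
Left, log2 difference, control liver minus control muscle, for each of the 18 tested probe sets with 95% intervals, red where the limma adjusted p was under 0.05; right, the chosen probe set of each gene under 4 scalings. Cat, Gpx1 and Gpx3 stand far from 0 under each scaling, whereas Gpx4 and Txn2 change sign between scalings, and the probe sets of Gpx4, Sod1 and Sod2 lie on both sides of 0.

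Other genes of the antioxidant pathways were counted in fixed lists. In the list of NRF2 and its classical targets 2 of 17 tested genes fell in liver, beside 1.03% of all genes, and none rose. The median log2 difference was 0.043, and 4 of the 17 had an unadjusted p under 0.05, beside 19.6% of all genes. Ephx1, microsomal epoxide hydrolase, fell from 3746 ± 242 to 2476 ± 85.3 (mean ± SD, n = 3), a log2 difference of -0.59 (SE 0.0998, limma adjusted p = 0.0198). Sqstm1, the autophagy adaptor p62, fell from 2679 ± 149 to 1826 ± 115, a log2 difference of -0.55 (SE 0.11, limma adjusted p = 0.0283). For Ephx1 the interaction between tissues also passed (-0.90, limma adjusted p = 0.0165). In that test 31 genes were called lower, beside 2 on the deposited scale and 2 with median centring. Its value for Ephx1 under other settings is not given here. Among the peroxide-forming oxidases 5 of 8 tested genes had an unadjusted p under 0.05 in liver, beside the same 19.6%, and the median was -0.15. Of the 8, 1 gene fell, again beside 1.03% of all genes. It was Acox2, the peroxisomal oxidase of branched-chain substrates, which went from 2105 ± 31.0 to 1335 ± 245 (log2 difference -0.67, limma adjusted p = 0.0372). These 3 liver calls depended on the scaling, since on the deposited scale, where 18 genes and not 137 were called lower, Ephx1 was at -0.37, Sqstm1 at -0.37 and Acox2 at -0.52 (limma adjusted p = 0.289, 0.273 and 0.172). With the 3' to 5' ratio in the model they were at -0.57, -0.52 and -0.53 (limma adjusted p = 0.393, 0.479 and 0.625).

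The 7 other lists had no call in liver with limma, and their members with the smallest p are given as values. Their counts with an unadjusted p under 0.05 stand beside 19.6% of all genes in liver. Among the other superoxide and peroxide enzymes (0 of 5, 2 with an unadjusted p under 0.05, median 0.27), Prdx2 was at 0.45 (limma adjusted p = 0.0671). In the thioredoxin and glutaredoxin system (0 of 14, 5 with an unadjusted p under 0.05, median -0.061), Txn1, the cytosolic thioredoxin, was at 0.33 (limma adjusted p = 0.0726). In selenoprotein synthesis, on which the Gpx enzymes depend for selenocysteine (0 of 9, 3 unadjusted, median 0.051), Trnau1ap was at 0.72 (limma adjusted p = 0.0671). In glutathione synthesis and recycling (0 of 6, 1 unadjusted, median -0.068), Ggct was at 0.74 (limma adjusted p = 0.154). In NADPH supply (0 of 5, 2 unadjusted, median -0.25), Idh1 was at -0.25 (limma adjusted p = 0.181). In metal supply and metallothioneins (0 of 8, 0 unadjusted, median -0.14), Slc39a14 was at -0.30 (limma adjusted p = 0.321), and of the uncoupling proteins only Ucp3 was tested, at 0.056 (limma adjusted p = 0.912).

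In muscle none of the 9 lists had a call with limma, where adjusted p was 0.994 for the leading member of each. The peroxide-forming oxidases (0 of 6, 0 with an unadjusted p under 0.05) had a median of -0.24. The thioredoxin and glutaredoxin system (0 of 14, 0 unadjusted) had one of -0.14, with 11 of its 14 genes lower in mean. Beside these, the median of all genes was -0.00021, and 49.9% of all probe sets had a lower mean. Ucp3, an uncoupling protein of muscle mitochondria, was 249 in control and 181 in mutant muscle on average (log2 difference -0.47, unadjusted p = 0.0735). Ephx1 was at 0.31 (unadjusted p = 0.0374) and Idh1 at 0.41 (unadjusted p = 0.0196), both opposite in sign to liver. Glrx5 led the thioredoxin and glutaredoxin system at -0.19, Ggct glutathione synthesis at -0.26, Sephs1 selenoprotein synthesis at -0.24, Ccs metal supply at 0.27, Xdh the oxidases at 0.62 and Sod3 the other superoxide and peroxide enzymes at 0.28.

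The members did not move as one block across arrays. With each tissue's mean removed, the highest positive correlations over the 12 arrays were Sod2 with Txn2 (Pearson r = 0.67), Sod1 with Prdx3 (r = 0.67) and Gpx4 with Prdx3 (r = 0.63). The correlation largest in size was negative, Gpx4 with Sod2 (r = -0.68). These values are a description, because the arrays share their groups and RNA. Of the 11833 genes compared, those most like Gpx4 in the same measure were Ccdc107 (r = 0.93), Zfp943 (r = 0.93) and Tgds (r = 0.93). The spread within groups also differed between members. In control muscle the SD on the log2 scale was 0.016 for Sod1 and 0.41 for Gpx4, beside a median of 0.18 over all genes tested there.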

How the data were processed

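Values are the signal intensity of each probe set as deposited by the authors in the series' value table, 1 column per array. The series' design text names the Murine 430 2.0 chip and the d-Chip software for clustering, but the program and scaling behind the deposited intensity values are not given there. Of 45101 probe sets, 64 controls were left out. The platform annotation, with symbols updated through Entrez IDs for 34741 probe sets, gives 1 symbol to 34945, several to 932 and none to 9160. Intensities were taken as log2(value + 16) and quantile normalised within each tissue, or over 12 arrays to compare control tissues. The probe set with the highest mean log2 value over all arrays stood for each gene, genes with a mean above the 40th percentile were tested, and limma 3.58.1 (R 4.3.3) with a mean-variance trend gave p-values, adjusted by Benjamini-Hochberg over all genes tested, threshold 0.05. Levels of different probe sets are not comparable. All 8 measured members passed the filter in both tissues, as did 18 of their 19 probe sets. The number of arrays, 3 per group, limits the precision. The members, gene lists and tests were chosen with earlier results of these data known. The genes named are all members, the called members of each list (up to 4 per tissue), the member with the smallest p where a list had none, and the 3 genes most like each called member. The fitting code was tested on simulated data. Alternatives were the offset, the filter, the scaling, the variance trend, the choice of probe set, a replicate block, all 12 arrays in 1 fit, the 3' to 5' ratio and leaving arrays out.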

Additional observations from a re-analysis of the deposited data

How the results depend on the processing

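In liver 447 genes passed, 69.4% of them higher (93.9% as deposited, 90.1% with median centring). The count was 222 with no filter, 297 as deposited, 171 with the mean of all probe sets, 998 in the fit of all 12 arrays, 2 with the RNA ratio as covariate, 0 with no variance trend (2332 at an unadjusted p under 0.05) and 0 without mutants 1 and 3 (1091 unadjusted). It ranged from 0 to 741 when 1 array was left out, with 0 without control 2 or without mutant 1 and 741 without mutant 2. The member count fell from 1 to 0 with no filter, no variance trend, the mean of probe sets, the covariate and without mutants 1 and 3, and ranged from 0 to 1 over arrays left out; Gpx4 itself lost its call in 11 of 19 settings, 1 of them the fit with a single mutant array, with adjusted p 0.0647 with no filter, 0.157 with no variance trend and 0.0586 with the mean of probe sets, and its difference stayed above 0 in all 19. The cause was not tested. In muscle 2 genes passed, 0 with no variance trend (590 unadjusted), 1 with the mean of probe sets, 1 in the 12-array fit and 1 to 2 with an array left out. For the difference between tissues 168 passed, 58 with no filter, 57 as deposited, 58 with median centring, 0 with no variance trend (1717 unadjusted), 85 with the mean of probe sets, 1 with the covariate, 10 without liver mutants 1 and 3, and 12 to 393 with an array left out. With median centring, where 33 genes were called lower in liver, Ephx1, Sqstm1 and Acox2 had adjusted p of 0.174, 0.161 and 0.116. Between control tissues, testing every probe set gave 13450 probe sets, 14 of them of members, and leaving out an array gave 7321 to 7528 genes and 5 to 6 members.

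The labels state no pairing of same-numbered samples. The correlations of their deviations from the group means were between -0.068 and 0.14. Between control and mutant muscles of the same number they were 0.023, 0.057 and 0.14, and between livers -0.0047, -0.068 and -0.024. For different numbers within a tissue they ran from -0.11 to 0.072. With 3 samples per group these values cannot show whether same-numbered samples share a batch or a pairing. With the replicate number as a block, 11 genes and 0 members passed in liver (Gpx4 adjusted p = 0.0633), 2 and 0 in muscle, and 26 and 0 for the difference.

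The sign turned for members that had not passed, except Gpx4 between control tissues. In liver Cat turned to 0.25 as deposited, 0.24 with median centring, 0.10 with the covariate and 0.030 without mutants 1 and 3. Gpx3 turned to -0.46 with the covariate and -0.11 without those mutants, and Prdx3 to -0.14 and -0.050. With the covariate Sod1 turned to -0.035 and Gpx1 to -0.016. Over arrays left out, Cat ranged from -0.084 to 0.055, Gpx1 from -0.034 to 0.044 and Gpx3 from -0.33 to 0.44. In muscle Gpx4 turned to -0.026 with the mean of probe sets, and over arrays left out Gpx1 ranged from -0.19 to 0.18, Gpx3 from -0.013 to 0.27 and Gpx4 from -0.21 to 0.18. In the difference between tissues Gpx1 turned to 0.058 as deposited and 0.041 with median centring and ranged from -0.16 to 0.20 over arrays left out. There Gpx3 turned to -0.071 with an offset of 64, -0.47 with the covariate and -0.22 without liver mutants 1 and 3, and ranged from -0.45 to 0.32, and Txn2 turned to -0.073 with the covariate and -0.061 without those mutants. Between control tissues Gpx4 turned to 0.25 as deposited, 0.31 with normalisation within tissue and 0.043 with the mean of probe sets, Txn2 to 0.57, 0.60 and, with median centring, 0.14, and Sod2 to -0.078 with the mean of probe sets. Gpx3 in liver lies near the filter, at 21.5 units, so its differences there are the least certain.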
